A study of Mus musculus with 8 samples.

Results

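The genes described here encode the proteasome and the proteins that build, cap and inhibit it. They were taken as every gene whose symbol begins with Psma to Psmg followed by a digit, and 50 of the 18749 genes with a named probe on the array met this rule. RNA came from No. 4 mammary glands of age-matched C57/Bl6 dams at lactation day 1. The comparison was between 4 wild-type (WT) dams and 4 dams lacking Th-POK (KO), a transcription factor of T cells and luminal mammary epithelium encoded by Zbtb7b, with 1 dam for each one-colour Agilent array. The knockout was of the whole animal and not of the mammary epithelium alone. Every value is a log2 signal, the background-subtracted brightness of a probe after quantile normalization between the 8 arrays, and a difference is KO minus WT.

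The WT signals of Zbtb7b itself were 9.90, 10.42, 10.13 and 10.23. The KO signals were 1.55, 1.56, 1.65 and 1.60, and no KO array had the probe well above background, so every KO array matched its label and the gene was at least 81.5-fold lower there. Each array had 66.8% to 75.3% of its probes well above background and 0 spots were saturated. The 4 WT arrays lay on 1 slide and the 4 KO arrays on another, so genotype and slide cannot be told apart for any gene below. The glands were profiled whole, and a smaller share of cells of one type cannot be told apart from less RNA per cell.

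The proteasome degrades proteins that carry ubiquitin chains. Its core is a barrel, called 20S, of outer α rings that gate the entrance and inner β rings that hold the catalytic sites. A cap, called 19S, binds the ubiquitin chain, removes it and feeds the unfolded protein into the barrel through a ring of ATPases. Dedicated chaperones assemble both parts and then leave. Interferon and lymphoid cells exchange the constitutive catalytic subunits for Psmb8, Psmb9 and Psmb10 to form the immunoproteasome, which generates peptides for MHC class I. Alveolar cells of the lactating gland make secretory protein at a very high rate, and the proteasome degrades the misfolded part of it. A feedback through the transcription factor NRF1, encoded by Nfe2l1, raises transcription of proteasome genes together when proteasome activity is short, by way of antioxidant response elements in their promoters.

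Promoter windows, from 250 bases before the start of the gene to 50 bases after it, were taken from RefSeq for build GRCm38.p6. They were found for 39 of the 47 proteasome genes tested, and those of Psma8, Psmb1, Psmb2, Psmb7, Psmc3, Psmd3, Psmd7 and Psmg2 were not used here. Windows of 4 members are shown, each 5′ to 3′ on the strand of its gene. The first 3 carry a match, in capitals, to the core of the antioxidant response element (TGACNNNGC, where N is any base). They belong to 2 genes that fell in the KO glands, Psmb5 and Psmd9, and to Psmb6, which did not pass the test. Capitals in the last, that of the immunoproteasome gene Psmb8, mark a match to the interferon gamma-activated site (TTCNNNGAA).
Psmb5, chr14:54617946-54618245, minus strand: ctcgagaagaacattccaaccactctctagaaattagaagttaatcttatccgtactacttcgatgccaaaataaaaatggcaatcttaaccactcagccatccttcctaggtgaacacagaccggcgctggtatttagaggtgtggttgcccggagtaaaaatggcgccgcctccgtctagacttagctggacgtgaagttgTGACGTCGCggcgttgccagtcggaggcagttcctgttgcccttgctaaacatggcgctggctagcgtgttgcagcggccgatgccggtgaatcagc
Psmd9, chr5:123227940-123228239, plus strand: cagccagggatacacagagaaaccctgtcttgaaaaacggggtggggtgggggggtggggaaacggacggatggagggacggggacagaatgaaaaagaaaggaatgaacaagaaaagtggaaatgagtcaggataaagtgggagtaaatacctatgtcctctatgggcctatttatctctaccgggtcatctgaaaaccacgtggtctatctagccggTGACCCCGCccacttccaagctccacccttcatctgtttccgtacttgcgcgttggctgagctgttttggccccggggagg
Psmb6, chr11:70525107-70525406, plus strand: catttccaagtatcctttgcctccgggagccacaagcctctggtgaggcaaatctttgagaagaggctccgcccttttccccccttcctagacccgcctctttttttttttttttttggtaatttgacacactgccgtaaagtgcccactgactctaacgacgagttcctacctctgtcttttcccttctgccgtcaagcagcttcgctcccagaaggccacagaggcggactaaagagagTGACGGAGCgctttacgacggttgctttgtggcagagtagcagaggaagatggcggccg
Psmb8, chr17:34197945-34198244, plus strand: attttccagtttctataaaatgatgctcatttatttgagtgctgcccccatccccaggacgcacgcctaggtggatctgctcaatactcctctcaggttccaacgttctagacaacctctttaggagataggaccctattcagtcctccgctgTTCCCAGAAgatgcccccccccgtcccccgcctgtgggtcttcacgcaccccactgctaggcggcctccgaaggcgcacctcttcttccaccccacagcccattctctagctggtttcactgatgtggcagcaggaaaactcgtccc
The capitals begin 47, 31 and 9 bases before the start of Psmb5, Psmd9 and Psmb6, and 97 bases before that of Psmb8. None of these 4 matches overlapped a match to another motif searched. Over both strands, the antioxidant response element core was present in 6 of 42 windows of proteasome genes, or 14.3%, against 12.4% of all 32851 windows of the table. The 6 genes were Psmb5, Psmb6, Psmc6, Psmd12, Psmd9 and Psme4. The gamma-activated site was present in 7.14% of the members' windows against 8.30% of all windows, in Psmb8, Psmd2 and Psmg1. The CCAAT box (CCAAT) was present in 31.0% against 37.4%, and the interferon-stimulated response element core (GAAANNGAA) in 16.7% against 8.56%. A match is a run of letters and not evidence that a factor binds there.

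Proteasome genes were mostly a little lower in the KO glands, and the change of each was small. Of the 47 proteasome genes tested, 40 (85.1%) had a lower mean in the KO glands, where 52.4% of all 14137 genes tested did. Their median difference was -0.23, a signal 15.0% lower, against -0.02 over all genes. With limma and Benjamini-Hochberg adjustment over all genes, 6 of the 47 fell (adjusted p under 0.05), or 12.8%, where 8.96% of all genes were called lower. The order turned round in the fit blocked on replicate number, with 2 of the 47 (4.26%) called lower against 10.8% of all genes. None of the 47 was called higher, where 7.53% of all genes were. Before adjustment 20 of the 47 (42.6%) had p under 0.05 and a lower mean, against 19.6% of all genes, and 0 had p under 0.05 and a higher mean. The methods' t-test and the other alternatives run also called 0 members higher. In 17 members every WT array lay above every KO array (36.2%, against 12.9% of all genes), and in 1 member every KO array lay above every WT array (against 11.1%). No member differed by 2-fold or more.

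**Figure D1:**
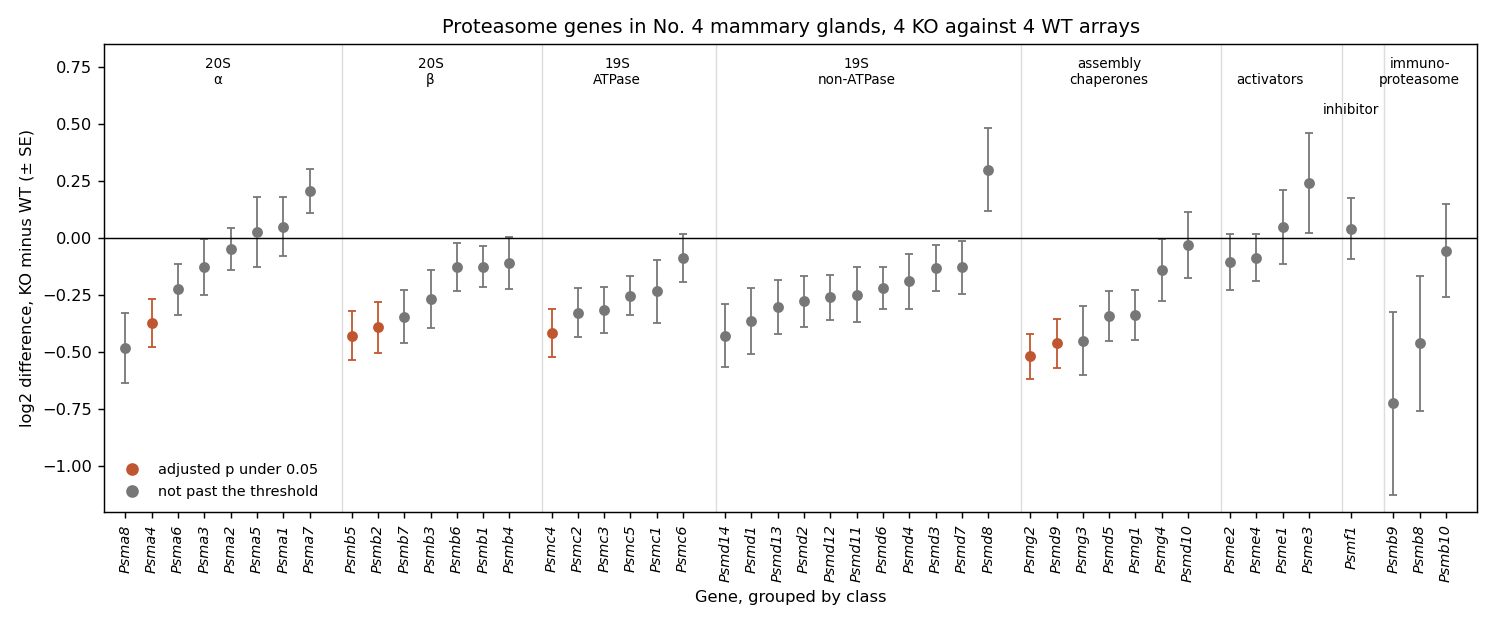
Log2 difference (KO minus WT, vertical axis) of each of the 47 proteasome genes tested, grouped by class along the horizontal axis. Bars are standard errors from limma over 4 WT and 4 KO arrays, and the 6 coloured points have an adjusted p under 0.05. Most points lie below 0, the largest spread of errors is among the immunoproteasome genes, and Psma7, Psmd8 and Psme3 lie farthest above 0.

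The genes that fell were Psmg2, Psmd9, Psmb5, Psmc4, Psmb2 and Psma4, which come from the assembly chaperones, the catalytic and structural β subunits, the ATPase ring and the α ring. Psmg2, the partner of Psmg1 in the chaperone that starts the α ring, had signals of 10.78, 10.87, 10.78 and 10.65 (WT) and 10.22, 10.20, 10.40 and 10.18 (KO). It fell by 0.52 ± 0.10 (SE, n = 4 per genotype), with an adjusted p of 0.0167 from limma. Every WT array was above every KO array for Psmg2, and its second probe gave -0.50 and also passed (adjusted p = 0.0185 from limma over all probes).

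Psmd9, a chaperone of the ATPase ring, had signals of 9.37, 9.58, 9.71 and 9.41 (WT) and 9.10, 8.95, 9.10 and 9.07 (KO). It fell by 0.46 ± 0.11 (SE), with an adjusted p of 0.0277 from limma, and the genotypes did not overlap. Its second probe gave a difference of -0.24 and did not pass the test (adjusted p = 0.166 from limma over all probes), and with the mean of both probes Psmd9 was not called (adjusted p = 0.0508 from limma).

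Psmb5, the chymotrypsin-like catalytic subunit and the site at which bortezomib binds, had signals of 13.41, 13.75, 13.54 and 13.53 (WT) and 13.08, 13.06, 13.10 and 13.28 (KO). It fell by 0.43 ± 0.11 (SE), with an adjusted p of 0.0327 from limma. The lowest WT array was above the highest KO array by a small margin.

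Psmc4, an ATPase of the base, had signals of 12.76, 12.87, 12.85 and 12.70 (WT) and 12.50, 12.17, 12.40 and 12.44 (KO). It fell by 0.42 ± 0.10 (SE; adjusted p = 0.0333 from limma), and both of its probes passed the test. The KO array of replicate 2 was the lowest and no array of one genotype lay among those of the other.

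Psmb2, a non-catalytic β subunit, had signals of 10.47, 10.73, 10.46 and 10.41 (WT) and 10.16, 9.96, 10.23 and 10.16 (KO). Psma4, an α subunit, had signals of 11.99, 12.19, 12.17 and 12.01 (WT) and 11.82, 11.53, 11.79 and 11.73 (KO). Psmb2 fell by 0.39 ± 0.11 (SE) and Psma4 by 0.37 ± 0.11 (SE), with adjusted p of 0.0454 and 0.0440 from limma, both close to the threshold. Neither was called with dim probes kept or with unmatched probes kept, Psmb2 was not called by the methods' t-test, and Psma4 was not called in the authors' table (adjusted p = 0.0525 from limma). Neither gene overlapped between genotypes, and KO replicate 2 was again the lowest array. With the replicate number as a block, Psmg2 and Psmd9 kept an adjusted p under 0.05 in limma (0.0273 and 0.0436), while Psmb5, Psmc4, Psma4 and Psmb2 did not (0.0505, 0.0581, 0.0730 and 0.0815). Psmg2 was also the only one of the 6 that passed when any 1 of the 8 arrays was left out, with adjusted p between 0.0220 and 0.0477 from limma. Leaving out WT replicate 2 or 3, or KO replicate 1, 2 or 3, left 1 member called in place of 6.

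**Figure D2:**
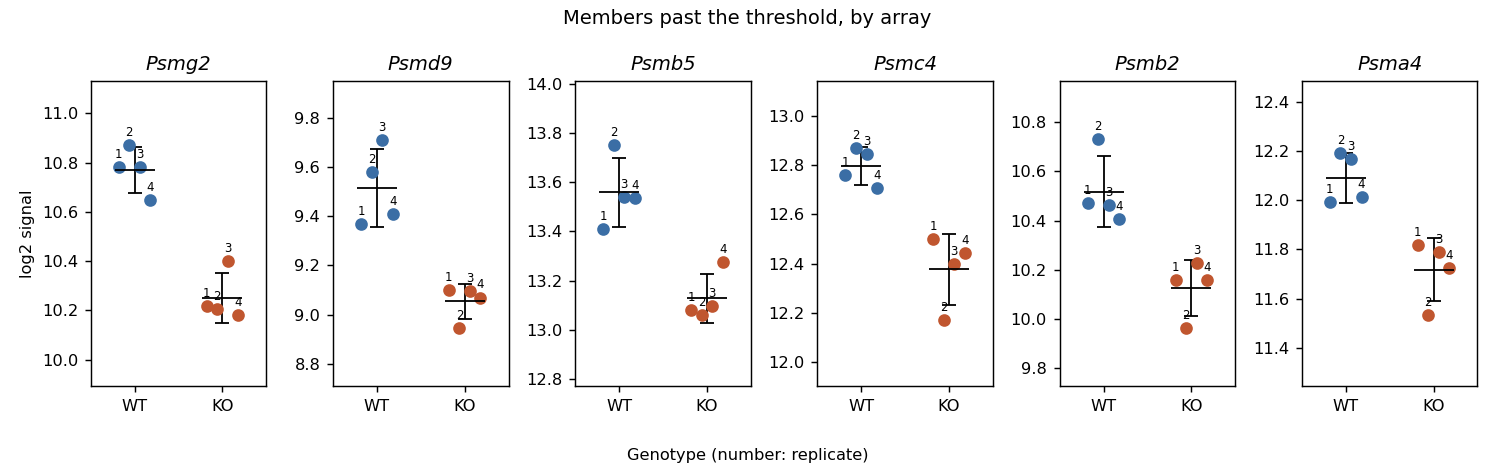
Log2 signal (vertical axis, 1 panel per gene, each spanning the same range) of the 6 proteasome genes with an adjusted p under 0.05, on each WT and KO array. Points are arrays numbered by replicate, and bars are the mean and SD of 4 arrays. In each panel the 4 WT points lie above the 4 KO points.

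Within the core, the means of the constitutive β subunits all lay on one side and those of the α subunits did not. All 7 constitutive β subunits had a lower mean in the KO glands, from -0.43 (Psmb5) to -0.11 (Psmb4), with a median of -0.27. Among the 8 α subunits 5 were lower on the mean and 3 higher, and the median was -0.09. The difference between the rings was not tested. Psmb7, the trypsin-like catalytic subunit, had signals of 12.22, 12.38, 12.34 and 12.62 (WT) and 12.07, 11.93, 11.99 and 12.19 (KO), a difference of -0.34 ± 0.12 (SE; adjusted p = 0.0714 from limma) with no overlap. For Psmb6, the caspase-like subunit, the arrays overlapped, at 13.97, 14.18, 14.14 and 13.92 (WT) against 14.07, 13.83, 13.90 and 13.89 (KO). Its difference was -0.13, with a 95% interval from -0.37 to 0.11 (adjusted p = 0.414 from limma). Psmb4, which closes the β ring, was at 15.02, 14.93, 15.07 and 14.80 (WT) and 14.98, 14.66, 14.97 and 14.77 (KO), and overlapped almost fully. Psmb1 differed by -0.13 and Psmb3 by -0.27, neither past the threshold, although the second probe of Psmb3 gave -0.51 (adjusted p = 0.0368 from limma over all probes).

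Psma7, an α subunit, was the 1 member with every KO array above every WT array. Its signals were 14.93, 14.77, 14.86 and 14.82 (WT) and 15.15, 14.94, 15.14 and 14.98 (KO), and the difference of 0.21 ± 0.10 (SE) did not pass the test (adjusted p = 0.159 from limma). Psma8, the α subunit known from testis, was the dimmest member tested, at 4.91, 5.50, 5.21 and 5.03 (WT) and 4.85, 4.70, 4.74 and 4.43 (KO). Its difference of -0.48 ± 0.15 (SE) had an adjusted p of 0.0629 from limma. It was -0.10 (adjusted p = 0.396) with normexp background correction, and was called with scaling to the 75th percentile (adjusted p = 0.0436) and without WT replicate 1 (adjusted p = 0.0410), all from limma. Psma1, Psma2, Psma3, Psma5 and Psma6 lay between -0.23 and 0.05, and none passed.

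The 19S cap gave the same direction in nearly every subunit that the symbol rule takes in. Of these 17 subunits 16 were lower on the mean in the KO glands (94.1%, against 52.4% of all genes). Adrm1 (-0.29) and Sem1 (0.18) fall outside the rule and were counted with the partners, and neither was called. Among the 17, a lower mean with an unadjusted p under 0.05 in limma was found for 10 (58.8%, against 19.6%). Only 1, Psmc4, had an adjusted p under 0.05 from limma (5.88%, against 8.96% of all genes called lower). The 6 ATPases (Psmc1 to Psmc6), which unfold the substrate, had a median of -0.28 and ranged from -0.42 to -0.09. In 4 of them every WT array was above every KO array (66.7%, against 12.9% of all genes). After Psmc4, the adjusted p was 0.0653 for Psmc2 (-0.33), 0.0645 for Psmc3 (-0.32) and 0.0766 for Psmc5 (-0.25), all from limma. The second probe of Psmc5 gave -0.44 and passed (adjusted p = 0.0364 from limma over all probes). Psmc6 showed the smallest difference of the ring, -0.09, with signals of 13.94, 13.70, 13.77 and 13.93 (WT) and 13.82, 13.73, 13.84 and 13.60 (KO), which overlapped.

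Of the 11 non-ATPase subunits within the symbol rule, 10 were lower on the mean. An unadjusted p under 0.05 in limma was found for 6 of these 10 (54.5% of the 11, against 19.6% of all genes). After adjustment 0 passed in limma, where 8.96% of all genes were called lower, and 0 in the methods' t-test. Psmd11 and Psmd12 passed with scaling to the 75th percentile, and Psmd14 with normexp background correction. Psmd14, the deubiquitinase that cleaves the chain from the substrate, had the lowest difference. Its signals were 11.55, 11.78, 11.77 and 11.56 (WT) and 11.48, 10.90, 11.28 and 11.28 (KO), a difference of -0.43 ± 0.14 (SE; adjusted p = 0.0654 from limma) without overlap. Psmd1 and Psmd2, the large scaffolds of the base, were at -0.36 and -0.28, and Psmd4, a receptor for ubiquitin chains, was at -0.19. Psmd8, a lid subunit, went the other way, at 13.13, 12.57, 13.00 and 12.69 (WT) and 13.41, 12.74, 13.26 and 13.16 (KO). Its arrays overlapped, and the difference of 0.30 had a 95% interval from -0.12 to 0.71 (adjusted p = 0.268 from limma).

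The assembly chaperones hold 2 of the 6 members that fell. All 7 were lower on the mean (Psmd10 was not with normexp background correction, at 0.0033), and the median difference was -0.34. Psmg2 and Psmd9 passed the test (28.6% of the 7, against 8.96% of all genes called lower). An unadjusted p under 0.05 in limma was found for 5 (71.4%, against 19.6% of all genes with a lower mean). Psmg3, part of the second α-ring chaperone, differed by -0.45 ± 0.15 (SE) and Psmg1, the partner of Psmg2, by -0.34 ± 0.11 (SE), with adjusted p of 0.0708 and 0.0648 from limma. Psmd5, another chaperone of the ATPase ring, differed by -0.34 (adjusted p = 0.0612 from limma). The genotypes overlapped in Psmg3 and in the remaining pair. Psmg4, the partner of Psmg3, was at 10.48, 10.51, 10.53 and 10.01 (WT) and 10.18, 10.17, 10.33 and 10.29 (KO), and WT replicate 4 was its lowest array. Psmd10, also known as gankyrin, was at 9.32, 8.83, 9.26 and 8.79 (WT) and 9.04, 8.93, 9.13 and 8.99 (KO), a difference of -0.03. The chaperone of the maturing barrel, Pomp, which falls outside the symbol rule, was at -0.15 (adjusted p = 0.362 from limma).

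The activators were split in direction, with Psme1 at -0.095 in place of 0.05 after scaling to the 75th percentile, and none of them passed the test. Psme1 and Psme2 encode the ring that opens the barrel without ATP and are placed 1 gene apart in the gene table. Psme1 had signals of 13.64, 13.72, 13.86 and 13.25 (WT) and 13.87, 13.77, 13.66 and 13.36 (KO), a difference of 0.05 with a 95% interval from -0.32 to 0.42. Psme2 had signals of 14.64, 14.60, 14.93 and 14.43 (WT) and 14.54, 14.49, 14.50 and 14.66 (KO), a difference of -0.11 with an interval from -0.39 to 0.17. Both overlapped between genotypes. Psme3, the nuclear activator, was high on KO replicates 1 and 3, at 10.40, 10.26, 10.19 and 10.20 (WT) and 10.82, 10.12, 10.9997 and 10.07 (KO). Psme4, which encodes PA200, was at 14.23, 14.19, 14.14 and 14.42 (WT) and 14.08, 14.24, 14.06 and 14.24 (KO). Psmf1, the inhibitor PI31, was at 8.75, 8.74, 8.85 and 8.38 (WT) and 8.83, 8.59, 8.86 and 8.59 (KO). All 3 overlapped, with adjusted p from limma of 0.456, 0.577 and 0.847. The other probes of Psmf1 gave -0.24 and -0.13, opposite in sign to the 0.04 of the brightest one, and none passed.

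The immunoproteasome genes had the widest spread of the 47 proteasome genes over the WT arrays. Psmb9, the counterpart of Psmb6, had signals of 11.54, 12.62, 12.98 and 11.20 (WT) and 11.94, 11.24, 11.18 and 11.08 (KO). Psmb8, the counterpart of Psmb5, had signals of 13.06, 13.58, 14.00 and 12.59 (WT) and 13.27, 12.68, 12.78 and 12.65 (KO). Psmb10, the counterpart of Psmb7, had signals of 13.43, 13.75, 13.91 and 13.02 (WT) and 13.74, 13.51, 13.34 and 13.29 (KO). In each of the 3 genes the WT arrays stood in the same order, replicate 3 above 2 above 1 above 4, and KO replicate 1 was the highest KO array. The SD over the WT arrays was 0.85 for Psmb9, 0.62 for Psmb8 and 0.40 for Psmb10, where the median SD of the proteasome genes was 0.13. The differences were -0.72 (95% interval -1.64 to 0.19), -0.46 (-1.14 to 0.21) and -0.06 (-0.52 to 0.41). None passed the test, with adjusted p from limma of 0.225, 0.289 and 0.863. Leaving out 1 array at a time moved the difference of Psmb9 between -1.02 and -0.43 and that of Psmb8 between -0.70 and -0.23, while Psmb10 changed sign (-0.22 to 0.07).

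**Figure D3:**
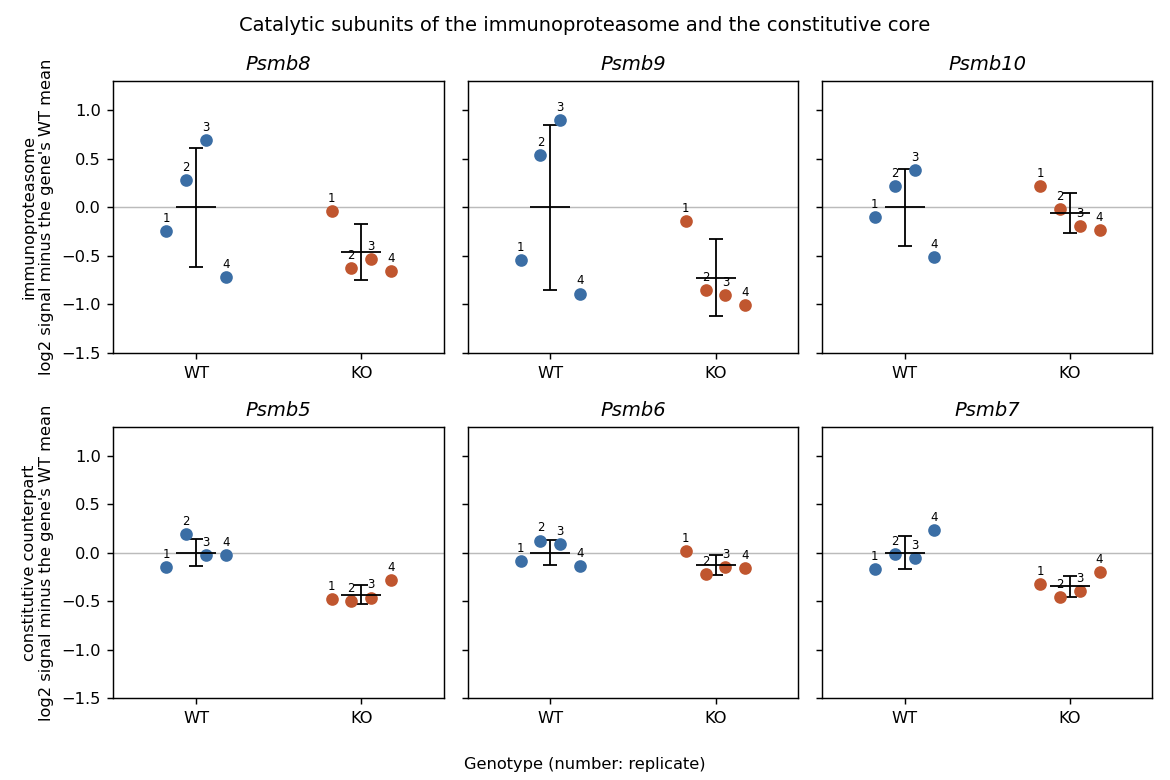
Log2 signal minus the WT mean of the same gene (vertical axis) for Psmb8, Psmb9 and Psmb10 (top) and their constitutive counterparts Psmb5, Psmb6 and Psmb7 (bottom), on 4 WT and 4 KO arrays. Points are arrays numbered by replicate, and bars are the mean and SD. The immunoproteasome genes spread widely among WT arrays in the order 3, 2, 1, 4, and the constitutive genes do not.

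The balance of immune and constitutive subunits was compared as a log2 ratio within each array, with a two-sided exact permutation test whose 70 relabelings cannot give a p under 0.0286. The ratio of Psmb8 to Psmb5 was -0.25 ± 0.58 (WT; SD, n = 4) and -0.28 ± 0.34 (KO; SD, n = 4), a difference of -0.03 (exact permutation p = 0.971). For Psmb9 to Psmb6 it was -1.97 ± 0.73 (SD) and -2.57 ± 0.31 (SD), a difference of -0.60 (exact permutation p = 0.229). For Psmb10 to Psmb7 it was 1.14 ± 0.52 (SD) and 1.43 ± 0.26 (SD), a difference of 0.29 (exact permutation p = 0.429). Adjusted over the 3 ratios, the exact permutation p-values were 0.971, 0.643 and 0.643. The 3 ratios did not share a direction, and each difference was smaller than the SD over the WT arrays. These ratios depend on the brightness of each probe, so only their change between genotypes can be read.

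Psmb8 and Psmb9 lie in the MHC beside the peptide transporter genes, in the order Psmb9, Tap1, Psmb8 and Tap2. Genes of antigen processing were set beside them. Of 11 tested, 10 were lower on the mean in the KO glands (90.9%, against 52.4% of all genes). The count called lower was 1 (9.09%, against 8.96% of all genes). The WT order 3, 2, 1, 4 was that of 5 (Calr, H2-D1, Irf1, Nlrc5 and Tap1), an order that 5.36% of all genes had. Calr, the calreticulin of the peptide-loading complex and a general chaperone of the endoplasmic reticulum, was at 14.50, 14.81, 14.89 and 13.94 (WT) and 13.70, 13.67, 13.87 and 13.79 (KO). It fell by 0.78 ± 0.20 (SE; adjusted p = 0.0349 from limma), and was no longer called without WT replicate 2 or 3 or without any 1 of the KO replicates, which left a count of 0, or of 1 (Tapbp) without KO replicate 1. H2-K1, a class I heavy chain, was at 16.16, 17.21, 17.20 and 16.35 (WT) and 16.38, 15.78, 15.90 and 15.72 (KO), a difference of -0.79 that missed the threshold (adjusted p = 0.0802 from limma). WT replicates 2 and 3 were the highest arrays for both genes. B2m, the light chain, differed by -0.59 and H2-D1 by -0.45, with adjusted p of 0.144 and 0.149 from limma. Tapbp (tapasin) differed by -0.45 and Erap1, which trims peptides, by -0.25, with adjusted p of 0.102 and 0.104 from limma.

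T cell markers, macrophage markers and antigen processing genes ranked the WT arrays by their median as the immunoproteasome did. General leukocyte, B cell and neutrophil markers did not. The ranking was not particular to immune lists, since the assembly chaperones and all 47 proteasome genes shared it. So did all genes tested, over a narrow range (medians of -0.0015, 0.0039, 0.013 and -0.013 on WT replicates 1 to 4). By gene, 8 of the 47 members had the WT order 3, 2, 1, 4 (17.0%, against 5.36% of all genes), the 3 immunoproteasome genes among them. The median deviation of the 3 immunoproteasome genes from their WT means was -0.25, 0.28, 0.69 and -0.72 (WT) and -0.04, -0.63, -0.53 and -0.65 (KO). For 7 T cell markers it was -0.45, 0.47, 0.79 and -0.81 (WT) and -0.34, -0.51, -0.57 and -0.47 (KO). Both were highest on WT replicates 3 and 2, and lowest on WT replicate 4. By gene, 4 of the 7 T cell markers stood in the WT order 3, 2, 1, 4 (57.1%, Cd3d, Cd5, Cd8a and Lat). For the 11 antigen processing genes the medians were -0.24, 0.22, 0.36 and -0.37 (WT) and -0.16, -0.45, -0.65 and -0.57 (KO). All 7 T cell markers were lower on the mean in the KO glands. Of them 2, Cd3e (-0.60) and Cd4 (-0.43), were called lower (28.6%, against 8.96% of all genes). These 2 had their lowest WT signal on replicate 1, at 6.95 and 4.49, and not on replicate 4. The mean signal of the list was 6.005 to 7.261 (WT) and 6.04 to 6.36 (KO). With the replicate number as a block only Cd3e was called. Neither was called without WT replicate 2, 3 or 4 or KO replicate 1, 2 or 3, or by the methods' t-test. Of 7 macrophage markers 5 stood in the WT order 3, 2, 1, 4 (71.4%), with medians of -0.08, 0.02, 0.22 and -0.20 (WT) and 0.28, 0.29, 0.01 and -0.36 (KO). Of these 7, 0 were called by limma or the methods' t-test (0 at an unadjusted p under 0.05 in limma). The mean signal of the list ran from 10.51 to 10.90 (WT) and from 10.35 to 10.98 (KO). Of 8 general leukocyte markers 0 were called by limma or the methods' t-test (1 at an unadjusted p under 0.05 in limma), and their mean signal ran from 9.57 to 10.09 (WT) and from 9.29 to 9.91 (KO). The WT order 3, 2, 1, 4 was that of 1 of these 8 markers, of 1 of 5 B cell markers and of 0 of 5 neutrophil markers. Their part in the immunoproteasome values was not tested.

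**Figure D4:**
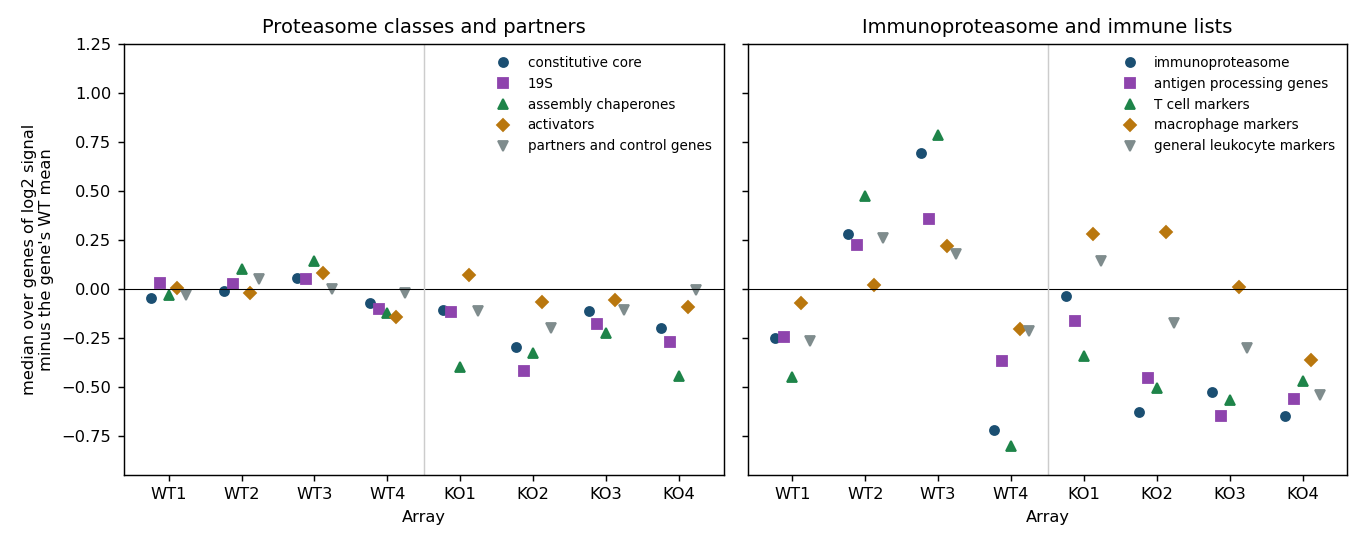
Median, over the genes of a list, of the log2 signal minus the WT mean of each gene (vertical axis), on each of the 8 arrays (horizontal axis). Left, classes of proteasome genes and their partners, which stay between -0.14 and 0.14 on the WT arrays. Right, the immunoproteasome genes and immune lists, which spread on the WT arrays, with the T cell markers and the immunoproteasome at 0.79 and 0.69 on WT replicate 3.

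The array means of the constitutive core and the 19S cap had a smaller SD among WT dams than among KO dams. This SD was 0.046 (WT) and 0.10 (KO) for the core, and 0.058 and 0.14 for the cap. For the constitutive β subunits alone it was 0.077 and 0.085, and for the assembly chaperones 0.13 and 0.071. By gene, the median SD was 0.13 (WT) and 0.12 (KO) in the core, and 0.10 and 0.16 in the cap. The difference in spread was not tested. The median deviation of the 47 proteasome genes ran from -0.11 to 0.07 (WT) and from -0.31 to -0.12 (KO). Replicate 2 was the lowest KO array for 32 of the 47 members, and replicate 4 the lowest WT array for 25. Without KO replicate 2 the median difference of the members was -0.18 and 39 of 47 were lower on the mean. For the constitutive core the deviation ran from -0.07 to 0.05 (WT) and from -0.30 to -0.11 (KO), for the 19S cap from -0.10 to 0.05 and from -0.42 to -0.12, and for the assembly chaperones from -0.12 to 0.14 and from -0.45 to -0.23. Some markers of luminal cells, adipocytes and neutrophils also differed between genotypes. Of 8 luminal markers 2 were called higher in the KO glands, where 7.53% of all genes were. They were Krt18 and Epcam. Their count was 0 by the methods' t-test, with dim probes kept, and without WT replicate 2 or 4 or KO replicate 1 or 3. Elf5 and Lalba differed by -0.35 and -0.45 and were not called. With the block Krt18 was called higher and Lalba lower, with 75th percentile scaling Epcam was called higher and Elf5 lower, and without KO replicate 2 only Elf5 was called, as lower. The luminal list had deviations from -0.11 to 0.09 (WT) and from 0.05 to 0.23 (KO), which overlapped, and the mean signal of the list ran from 15.78 to 15.94 (WT) and from 15.93 to 16.07 (KO). Of 6 adipocyte markers 5 were higher on the mean, with deviations of the list from -0.43 to 0.20 (WT) and from 0.36 to 0.67 (KO), which did not overlap, and mean signals of 12.07 to 12.78 (WT) and 12.64 to 12.91 (KO), which did. Plin1, which coats the lipid droplet, was called higher (0.71), but not by the methods' t-test, with dim probes kept or without any 1 array other than WT replicate 4. Of the neutrophil markers, Camp and Ngp were not well above background on any WT array and entered the test only through the KO arrays. Among the 3 that were above background on all 8 arrays, Ltf was called higher, by 1.31 ± 0.17 (SE) with an adjusted p of 0.00660 from limma. Its mean WT signal was 16.27, against 1.95 for Camp and 2.46 for Ngp, and which cells of the gland expressed it was not tested. S100a9 (2.19) was called only with the block and without WT replicate 4, and S100a8 (0.49) was not called. Their part in the proteasome values was not tested.

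Proteins that deliver substrates to the proteasome or work on it outside the symbol rule were set beside the members. Of 28 tested, 19 were lower on the mean in the KO glands (67.9%, against 52.4% of all genes), with a median of -0.14. Limma called 0. At an unadjusted p under 0.05 in limma 6 were lower (21.4%, against 19.6% of all genes) and 2 higher. The methods' t-test called 1 of them, Ufd1. Vcp, the ATPase that extracts ubiquitinated proteins from membranes and complexes, was at 13.79, 13.94, 13.94 and 13.77 (WT) and 13.61, 13.24, 13.59 and 13.53 (KO). Its cofactors Ufd1 (-0.33) and Nploc4 (-0.38) were lower together with it (-0.37). In each of the 3 genes every WT array was above every KO array, as in 6 of the 28 (21.4%, against 12.9% of all genes). The adjusted p from limma was 0.0602, 0.0547 and 0.0579 for Vcp, Ufd1 and Nploc4. Txnl1, a thioredoxin bound to the 19S cap, differed by -0.34 and Ubqln1, a shuttle for ubiquitinated proteins, by -0.44, with adjusted p of 0.0560 and 0.0621 from limma. Akirin2, which brings proteasomes into the nucleus, went the other way, at 10.64, 10.15, 10.34 and 10.55 (WT) and 10.71, 10.85, 10.98 and 10.88 (KO). Its difference of 0.44 ± 0.13 (SE) missed the threshold (adjusted p = 0.0513 from limma) without overlap between genotypes. Nfe2l1, which encodes NRF1, differed by 0.45 (adjusted p = 0.113) and Nfe2l2, which encodes NRF2, by 0.17 (adjusted p = 0.434), both from limma. Both were named after their values had been seen. With the replicate number as a block, Nfe2l1, Ubqln1 and Uchl5 passed the threshold, a count of 3 in place of 0.

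**Figure D5:**
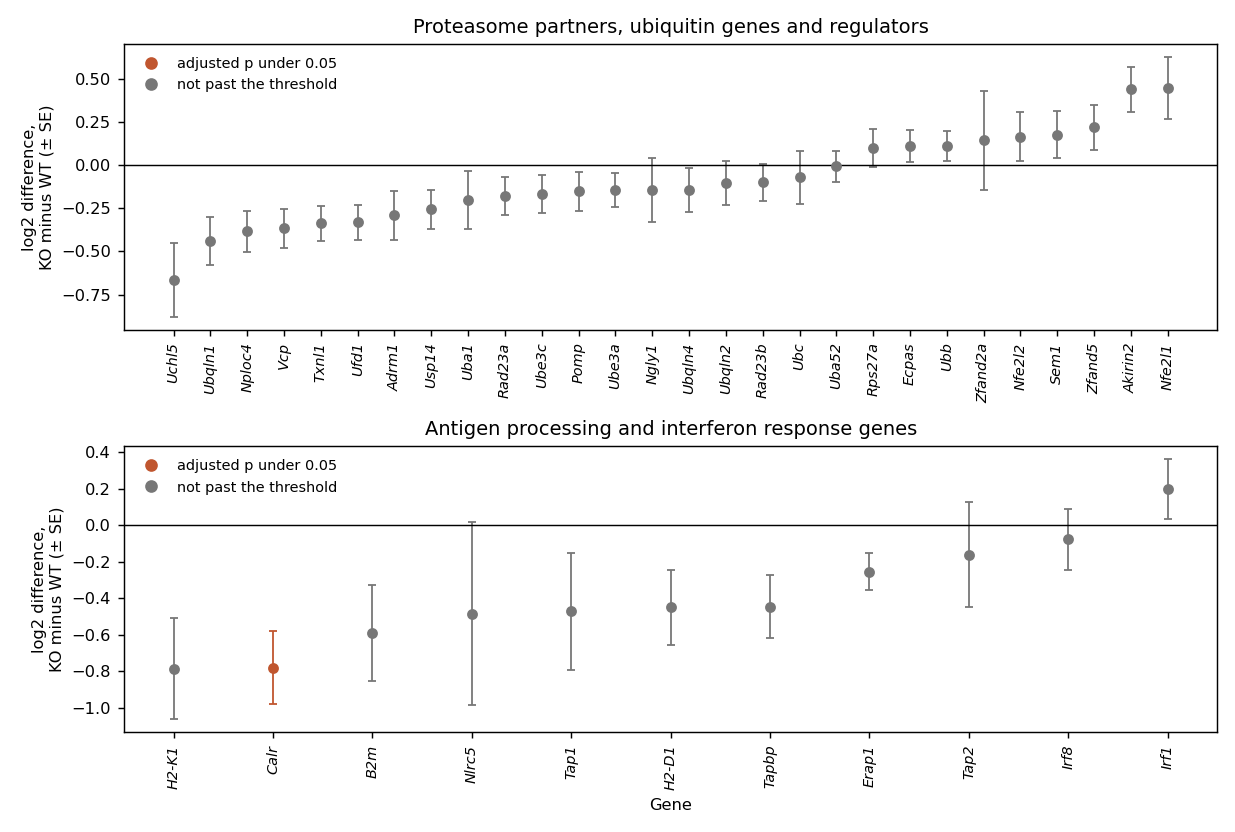
Log2 difference (KO minus WT, vertical axis) of 28 proteasome partners, ubiquitin genes and regulators (top) and 11 antigen processing and interferon response genes (bottom), ordered by size. Bars are standard errors from limma over 4 WT and 4 KO arrays, and Calr is the 1 gene with an adjusted p under 0.05. The extremes of the upper panel are Uchl5 and Nfe2l1.

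A few genes of the rule are not subunits of the proteasome or could not be tested. Psmc3ip, a factor of meiotic recombination named for its binding to Psmc3, had signals of 6.81, 7.85, 7.08 and 8.47 (WT) and 6.71, 6.59, 6.86 and 6.79 (KO). Its difference of -0.81 was not past the threshold (adjusted p = 0.114 from limma), and WT replicates 2 and 4 were high. Psme3ip1, named for its binding to Psme3, differed by -0.05. Psmb11, the catalytic subunit of the thymus, had 2 probes, neither of them well above background on any array. Psme2b was named by no probe, and the 6 pseudogenes of the rule were not either. Of the 16 symbols with more than 1 probe past the filter, the probes differed in sign for 1 (Psmf1) and in call for 3 (Psmb3, Psmc5 and Psmd9). Retrocopies of proteasome genes are common in the mouse genome, and a probe may also bind their transcripts.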

How the data were processed

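Total RNA of No. 4 mammary glands from 4 WT and 4 KO dams at lactation day 1 was hybridized to 8 Agilent mouse arrays in one colour, with 1 dam on each. Genotype and replicate number were taken from the labels. For each array the authors deposited the scanner output of Agilent Feature Extraction 10.7 (name and version from the submitters' processing notes), whose processed intensity is background-subtracted and detrended but not normalized between arrays. A second table deposited by the authors holds log2 values, quantile-normalized in GeneSpring per their methods, with a median of 6.33. Its columns correlated at r of 0.999996 or more across probes with the values computed here for the same arrays, and it served as an alternative.

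Here, control spots were removed, and the log2 of the processed intensity was quantile-normalized. Outlier spots (64 to 100 per array) were left out and the spots of a probe averaged, giving 41174 probes. Symbols came from each probe's accession through a RefSeq table of GRCm38.p6, and 27479 probes matched 18749 genes. A probe entered when well above background on all 4 arrays of a genotype, and the brightest probe stood for its gene, which left 14137 genes. They were tested with limma 3.58.1 in R 4.3.3 with Benjamini-Hochberg adjustment over all of them, a gene being called at an adjusted p under 0.05. The 3 subunit ratios were compared by an exact permutation test. The script was tested on simulated data. Figures were drawn with matplotlib 3.10.9.

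Members and gene lists (subunit classes, 30 partners, 12 antigen processing genes and 9 marker lists) were chosen with earlier results of these data known. Of antigen processing, 1 further gene is not reported here. Paaf1, Ddi2, Pdia3, Cd68, Ly6g and Cd8b1 of these lists had no named probe, and Mmp8, Cxcr2 and Blk did not pass the filter. Marker lists of B cells, basal epithelium and endothelium were measured as well: 1 of 5 (Cd79b, higher), 0 of 6 and 0 of 5 genes were called by limma, with 2, 1 and 1 at an unadjusted p under 0.05. Cd79b was not called with the replicate block, by the methods' t-test or without any 1 array other than WT replicate 3. Values on every array are given for members with an adjusted p under 0.05, for the catalytic pairs, Psme1 and Psme2, and for the highest and lowest difference of each class, with up to 6 genes of smallest p from the partners and from antigen processing, not all of them with values on every array. Psme2b and Psme3ip1 were classed after the data had been seen.

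WT and KO dams share the replicate numbers 1 to 4, which the labels do not explain. Deviations from the genotype means correlated between same-numbered WT and KO arrays at r from 0.165 to 0.304, with a mean of 0.243. The mean for different numbers was -0.079. It adds no separate evidence, because deviations of a genotype sum to 0 over its 4 arrays and so nearly fix it. The numbers were treated as a possible pairing, which these values do not settle. The main calls, standard errors and intervals come from the fit on genotype alone. The fit with the replicate number as a block is given beside the calls of members and lists that it changes. Alternatives were scaling to the 75th percentile, normexp background correction (offset 50, on the median signal of a spot, since the mean signal was not used here), the authors' table, no filter and a stricter filter on dim probes, the mean of a gene's probes, the replicate block, the methods' t-test, unmatched probes kept in the adjustment, and each array left out in turn. The number of arrays limits the precision, and where nothing is said of cages or litters the p-values measure the spread between these dams.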

Additional observations from a re-analysis of the deposited data

Results flagged for a closer look

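Among 100 sets of 4 arrays (each member in each genotype), 3 held an array far from the other 3, and chance alone flags about 1 set in 20. For Psmc3 the WT array of replicate 1 was at 11.16, below the other WT arrays at 11.22 to 11.24. For Psmd7 the WT array of replicate 4 was at 12.49, below 12.75 to 12.79. For Psmg4 the WT array of replicate 4 was at 10.01, below 10.48 to 10.53.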

How the results depend on the processing

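The median difference of the proteasome genes stayed below 0 under every alternative run, between -0.31 (75th percentile scaling) and -0.22 (the authors' table), and between -0.27 and -0.18 with 1 array left out. The count of members called higher was 0 under every alternative. The count called lower was 6 (12.8% of members, 8.96% of all genes) and became 11 with 75th percentile scaling (23.4%, 10.2% of all genes) and 2 with the replicate block, the paired fit (4.26%, 10.8% of all genes). It ranged from 1 to 7 with 1 array left out (2.13% to 14.9%, where 1.75% to 11.9% of all genes were called lower), and the members' share was under that of all genes without WT replicate 2 or 3 or KO replicate 1, 2 or 4. Partners called went from 0 to 3 with 75th percentile scaling (Txnl1, Ufd1, Vcp), 3 with normexp (Nploc4, Txnl1, Ubqln1), 1 in the authors' table (Akirin2), 2 with the mean of a gene's probes (Usp14, Vcp), 3 with the replicate block and 1 by the methods' t-test, and ranged from 0 to 4 with 1 array left out. Antigen processing genes called went from 1 to 0 by the methods' t-test and with dim probes kept, and ranged from 0 to 3 with 1 array left out. The ratio of Psmb8 to Psmb5 changed sign without WT replicate 3 (0.20), KO replicate 2 (0.00012) or KO replicate 4 (0.079), with a range of -0.26 to 0.20. That of Psmb9 to Psmb6 ranged from -0.85 to -0.33 and that of Psmb10 to Psmb7 from 0.042 to 0.44. Small differences changed sign: Psmb10 without WT replicate 2 (0.018), WT replicate 3 (0.074) or KO replicate 4 (0.0035), with a range of -0.22 to 0.074; Psme1 with 75th percentile scaling (-0.095), without WT replicate 4 (-0.074) or KO replicate 1 (-0.020), with a range of -0.074 to 0.15. Psmd10 did so with normexp (0.0033), without WT replicate 1 (0.059), WT replicate 3 (0.038) or KO replicate 2 (0.00072), with a range of -0.12 to 0.059. Psmf1 did so with the mean of its probes (-0.11), without WT replicate 4 (-0.060) or KO replicate 3 (-0.0070), with a range of -0.060 to 0.096. The causes were not tested. Beyond the 4 members that it left uncalled, the block changed the call of no named member.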
